A study of Mus musculus with 15 samples.

Results

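The cytosolic ribosomal protein genes were taken from the GRCm39 annotation as the protein-coding genes whose symbol starts with Rpl or Rps and a digit, together with Rpsa, Rplp0, Rplp1 and Rplp2. The Rps6k kinases and Rps19bp1 were left out. This rule found 92 genes among 21770 protein-coding genes, and it used no measured value. The 92 fell into 31 core genes of the small subunit, 46 core genes of the large subunit, 4 paralogs known for restricted expression (Rpl3l in striated muscle, Rpl10l and Rpl39l in testis, Rps4l in the germ line and early embryo), 4 broadly expressed paralogs (Rpl7l1, Rpl22l1, Rpl36al and Rps27l) and 7 other retrocopies annotated as coding.

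The data were H3K4me3 ChIP–seq peak lists from mBA cells, mouse cells from brown adipose tissue. The labels call them primary, whereas the study's methods describe brown preadipocytes of newborn mice immortalized with the SV40 large T antigen and then differentiated. There were 4 ChIP samples and 1 input each of untreated wild type cells (WT), wild type cells given cell-permeable octyl d-2HG at 500 µM for 72 h in DMSO (WT + 2HG), and untreated cells lacking CLPP, a protease of the mitochondrial matrix (CLPP-KO). Values of WT + 2HG are also given below as those with 2HG. All were grown in high-glucose medium without pyruvate, and the knockout cells alone also received uridine, so genotype and uridine cannot be told apart. Peaks had been called jointly on the 4 replicates of each condition, which therefore has 1 list and no spread between replicates, and no test between conditions was possible.

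Cytosolic ribosomes are mostly built from the same core proteins. A set of them belongs to the small subunit, which decodes mRNA, and another set to the large subunit, which forms peptide bonds. The mRNAs of these proteins mostly begin with a C and a run of pyrimidines, the 5′ terminal oligopyrimidine (TOP) tract. Through it, mTOR signalling adjusts their translation. H3K4me3, trimethylation of histone H3 at lysine 4, is laid down around active CpG-rich start sites, mostly on the nucleosomes just inside the gene. Ribosomal protein mRNAs have also been copied back into the genome many times, which left intronless retrocopies that usually lack the parent's promoter.

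The tract is shown at 4 core genes whose annotated start lies at or near it, with the pyrimidine run in capitals. Each line gives 30 bases of the coding strand in GRCm39. Rpl22 and Rps2 are among the genes described in full further on, Rpl15 had higher values in both non-WT lists, and Rpl35a has the shortest run of these.
Rpl15, chr14:4198698-4198727, plus strand: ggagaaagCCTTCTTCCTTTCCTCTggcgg
Rpl22, chr4:152410136-152410165, plus strand: ccgtctgaCTCCTCCCTTTCCCgacagccg
Rpl35a, chr16:32876636-32876665, plus strand: cgattttgCCTTTCCTTgttcctaaataat
Rps2, chr17:24939069-24939098, plus strand: ccgcggcgCCTCCCTCTTCTTCTTCTTCgg

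A second set shows a copy beside its parent. Rps27, a small subunit gene of chromosome 3, and its intronless copy Rps27rt on chromosome 9 have identical coding sequences, and a run of 38 bases near their starts is the same. The capitals mark the first 7 bases of that run, with the 60 bases before it in lower case. The run was chosen so that the base before it differs between the 2 genes. Counted from the canonical start, the line runs from -37 to 30 for Rps27 and from -60 to 7 for Rps27rt. Part of the lower-case stretch of Rps27 thus lies inside the gene, so these are not matching promoter bases.
Rps27, chr3:90120948-90121014, minus strand: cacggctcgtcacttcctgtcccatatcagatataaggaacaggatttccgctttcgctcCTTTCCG
Rps27rt, chr9:114811801-114811867, minus strand: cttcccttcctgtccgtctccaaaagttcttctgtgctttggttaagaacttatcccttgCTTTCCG

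The last set shows the 100 bases before the canonical start of 2 restricted paralogs that differed in the lists, Rps4l and Rpl10l, and of the pair Rpl3 and Rpl3l, with each CpG dinucleotide in capitals.
Rps4l, chr6:148255998-148256097, plus strand: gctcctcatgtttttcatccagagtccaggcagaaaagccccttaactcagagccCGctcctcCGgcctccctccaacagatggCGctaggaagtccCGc
Rpl10l, chr12:66331182-66331281, minus strand: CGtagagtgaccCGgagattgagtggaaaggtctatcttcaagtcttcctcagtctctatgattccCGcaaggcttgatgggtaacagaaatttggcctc
Rpl3, chr15:79967608-79967707, minus strand: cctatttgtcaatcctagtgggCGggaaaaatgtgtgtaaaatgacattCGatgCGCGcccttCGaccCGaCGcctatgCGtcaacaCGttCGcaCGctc
Rpl3l, chr17:24946651-24946750, plus strand: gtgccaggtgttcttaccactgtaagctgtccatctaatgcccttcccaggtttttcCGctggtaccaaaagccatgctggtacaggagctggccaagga

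The lists held 12342 peaks in WT, 14059 with 2HG and 15118 in CLPP-KO, and the number of reads behind them is unknown from the files. The deposited area under the curve had a median of 2970 over WT peaks, 5027 with 2HG and 5744 in CLPP-KO, so areas were not compared between lists. Instead each gene's strongest promoter peak was given as its percentile, the percentage of peaks of the same list with an area no larger than its own. Of 11 brown adipocyte markers, 3 had a promoter peak in WT (Cebpa, Pparg and Prdm16), 5 with 2HG and 6 in CLPP-KO, while Ucp1, Adipoq, Fabp4, Dio2 and Ppargc1a had none in any list. Of 12 markers of other cell types, 1, 3 and 4 had a peak, respectively. Among all protein-coding genes, 51.3%, 56.4% and 58.2% had a promoter peak in the 3 lists. The part of these markers in the results was not tested. Clpp itself had a promoter peak in all 3 lists, at percentiles of 39.9, 45.2 and 43.4, and a peak at the start does not check a deletion within the gene.

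All 73 core genes on chromosomes 1 to 19 had an H3K4me3 peak within 2000 bp of a start site in each of the 3 lists. The 4 core genes of chromosome X had none in WT, and the restricted paralogs and retrocopies were mostly without one. In all, 78 of 92 members had a promoter peak in WT, beside 51.3% of all protein-coding genes. In WT + 2HG it was 80 of 92 beside 56.4%, and in CLPP-KO 78 of 92 beside 58.2%. The share of core genes was 94.8% in WT (73 of 77, 95% Wilson interval 87.4 to 98.0%), 97.4% with 2HG (75 of 77, 91.0 to 99.3%) and 96.1% in CLPP-KO (74 of 77, 89.2 to 98.7%). These intervals cover counting error only. The same 77 members had a peak in all 3 lists, beside 50.6% of protein-coding genes. Of the 14 members without a WT peak, 2 had one with 2HG (Rpl10 and Rpl39, beside 11.6% of protein-coding genes without a WT peak) and 1 in CLPP-KO (Rps4x, beside 14.9%). Of the 78 with a WT peak, 0 lacked one with 2HG (beside 0.914%) and 1 lacked one in CLPP-KO (Rpl7l1, beside 0.672%).

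**Figure D1:**
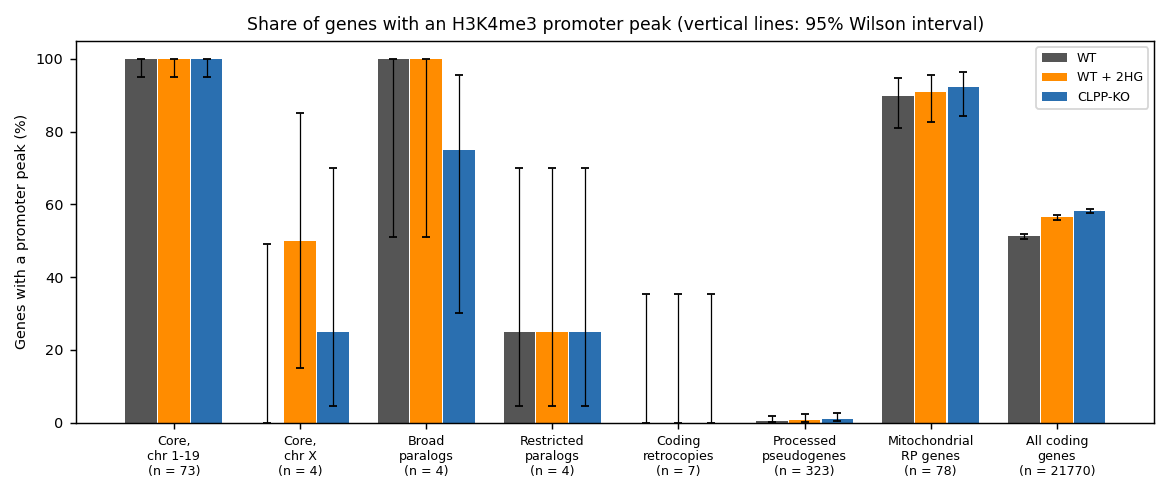
Share of genes with a promoter peak (y axis, %) in 7 classes and over all coding genes, with 1 bar per peak list and vertical lines for the 95% Wilson interval. The core genes of chromosomes 1 to 19 stand at 100% in each list, the coding retrocopies at 0%, and the processed pseudogenes below 1%.

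The 4 core genes of chromosome X were the only core genes without a peak in some list. Rpl10, which joins the large subunit late in its maturation, had a peak in WT + 2HG alone, 332 bp wide and at a percentile of 1.04. Rpl39, a small protein of the exit tunnel, also had one in WT + 2HG alone, 1018 bp wide at a percentile of 3.61. Rps4x had a peak in CLPP-KO alone, 398 bp wide at a percentile of 6.71, and Rpl36a had none in any list, with the nearest WT peak 15587 bp away. All 3 peaks were thus among the weakest of their list, with areas of 214, 260 and 341 against a smallest area of 200. Over all protein-coding genes of chromosome X the share was 24.7% in WT, 33.5% with 2HG and 34.4% in CLPP-KO, beside 52.9%, 58.0% and 59.7% on chromosomes 1 to 19. The study's stated peak calling settings excluded chromosome X, yet the lists held 276, 383 and 413 peaks there, so how that chromosome was treated is unclear and its values are given as deposited.

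Among the restricted paralogs, Rps4l alone had a promoter peak. This intronless copy of Rps4x on chromosome 6 (chr6:148256098-148257431) stood at a percentile of 30.8 in WT, 33.5 with 2HG and 47.8 in CLPP-KO, with peaks of 838, 1003 and 960 bp. It was therefore marked in every list, while its parent, on chromosome X, had only the weak peak in CLPP-KO. Their coding sequences were 79.7% identical in bases. The WT peak began 100 bp inside the gene and had its summit 493 bp inside. Rpl3l, Rpl10l and Rpl39l had no promoter peak in any list. The nearest WT peak lay 3359 bp from the canonical start of Rpl3l, 22817 bp from that of Rpl39l and 1111532 bp from that of Rpl10l. Their parents differed: Rpl3 was marked in all 3 lists, and Rpl10 and Rpl39, on chromosome X, in WT + 2HG alone. For Rps4x, Rpl10 and Rpl39, a missing peak cannot be told apart from the unclear treatment of that chromosome.

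Of the broadly expressed paralogs, Rpl22l1, Rps27l and Rpl36al were marked in all 3 lists. Rpl22l1, whose product can take the place of Rpl22, stood at percentiles of 60.7 in WT, 46.3 with 2HG and 59.3 in CLPP-KO. Rps27l stood at 66.6, 62.2 and 75.5. Rpl36al had the highest value of all members in WT, 97.6, and stood at 96.6 with 2HG and 97.3 in CLPP-KO, but its peak was shared with the start of Mgat2, a neighbouring glycosyltransferase gene, and had its WT summit at -460 bp, before the start of Rpl36al. Rpl7l1 had a weak peak at a percentile of 4.54 in WT and 0.413 in WT + 2HG, and none in CLPP-KO.

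None of the other 7 coding retrocopies (Rpl10-ps3, Rpl27rt, Rpl35rt, Rpl9-ps6, Rps18-ps6, Rps23rg1 and Rps27rt) had a promoter peak in any list. The Wilson interval of 0 of 7 reaches 35.4%. Of the 85 members with an intron in at least 1 transcript, 77 were marked in WT, 79 with 2HG and 77 in CLPP-KO. Most of the 85 are core genes, and of the 8 non-core members among them 4, 4 and 3 were marked, respectively. Of the 7 members without an intron, only Rps4l was marked, in each list. The shares over all protein-coding genes with and without an intron were not computed. Rps27 stood at percentiles of 46.1, 44.4 and 36.6, while its copy Rps27rt, with 100% identity over the coding sequence, had no peak closer than 3091 bp. Rpl10-ps3 was likewise identical to Rpl10 over the coding sequence, and Rpl9-ps6, Rpl35rt and Rps18-ps6 reached 99.8%, 99.7% and 99.1%. Reads from such stretches cannot be placed with certainty. The stated peak calling settings list no mapping quality threshold, and any filter applied before them is not given in the sources used here. The same absence was seen at the 323 processed pseudogenes named after ribosomal proteins. A peak overlapped the start window of 1 in WT (0.310%), 2 with 2HG (0.619%) and 3 in CLPP-KO (0.929%). Apart from Rpl19-ps11 in CLPP-KO, at a percentile of 0.390, these peaks also lay in the window of a protein-coding gene. The share over processed pseudogenes of other genes was not computed.

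CpG content at the start was mostly higher at the core genes than at the copies without a peak. The ratio of observed to expected CpG over 1000 bp at the canonical start had a median of 0.822 in the core genes of chromosomes 1 to 19, with a range of 0.627 to 0.992. It was 0.753 over protein-coding genes with a WT peak and 0.237 over those without. The 4 core genes of chromosome X ranged from 0.502 to 0.798. The 5 non-core members with a WT peak ranged from 0.670 (Rpl7l1) to 1.06 (Rpl36al), with Rps4l at 0.854. The 10 without a WT peak ranged from 0.135 (Rpl27rt) to 0.738 (Rpl10l), and Rps27rt stood at 0.408 where Rps27 stood at 0.871. The ranges overlapped: Rpl10l and Rpl35rt (0.690) had no peak and a higher ratio than the marked Rpl7l1. In the 100 bases printed above, Rps4l held 4 CpGs and Rpl10l 3, whereas Rpl3 held 11 and Rpl3l 1.

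**Figure D2:**
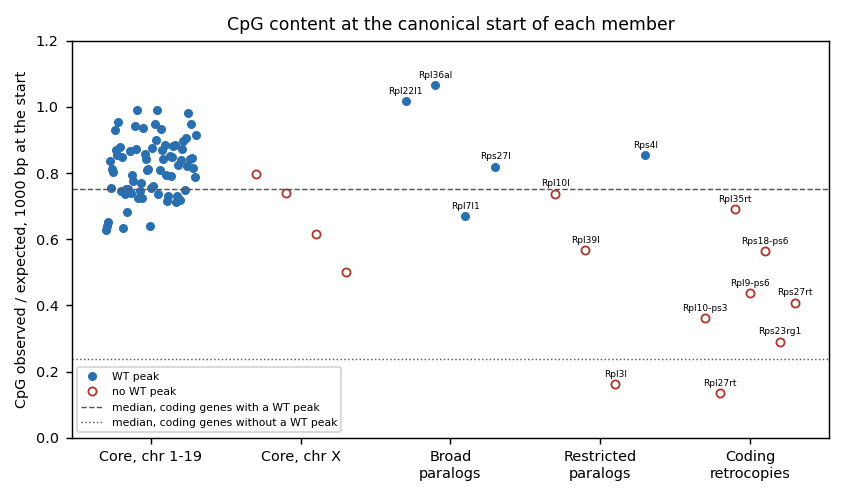
Ratio of observed to expected CpG over 1000 bp at the canonical start (y axis), with 1 point per member, filled where the gene had a WT promoter peak and open where it had none. Broken and dotted lines mark the medians of coding genes with (0.753) and without (0.237) a WT peak, and the open points of Rpl10l and Rpl35rt reach 0.738 and 0.690, within the range of the marked core genes.

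Of the short motifs searched within 150 bp either side of the canonical start, the pyrimidine-rich ones were more frequent in core genes than over all protein-coding genes. CTTTTC was found on the sense strand in 17 of 77 core genes (22.1%, beside 10.0% of all protein-coding genes), CCTTTT in 18 (23.4% beside 9.02%) and CTTTCC, which was added after the sequences had been seen, in 26 (33.8% beside 13.3%). These 3 can overlap each other, and at least 1 of them was present in 43 core genes (55.8% beside 25.9%). CCGGAAG, the core of the site bound by ETS factors, was found on either strand in 36.4% of core genes beside 11.3%, and in 41.0% of the 78 genes for mitochondrial ribosomal proteins. AAGATGG, part of the YY1 site, was found in 16.9% beside 6.48%. CACGTG was found in 13.0% beside 7.73%. Read against the protein-coding genes with a WT peak instead, the share of core genes with at least 1 of the pyrimidine-rich motifs stood beside 23.8%, CCGGAAG beside 17.5%, AAGATGG beside 7.22% and CACGTG beside 10.4%. For 2 motifs the background mattered more: GGGCGG, at 59.7% of core genes, stood above the 46.8% of all protein-coding genes and below the 69.6% of marked ones, and TATAAA, at 13.0%, stood beside 10.8% of all and 5.10% of marked ones. A match only says that these letters stand in this window, and canonical starts often lie upstream of the TOP tract, so the window and not the first base was searched.

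The peaks of core genes lay mostly in the upper part of their list. The median percentile of marked core genes was 72.1 in WT (interquartile range 50.8 to 84.8), 63.4 with 2HG (50.3 to 78.2) and 69.6 in CLPP-KO (49.5 to 80.6). Over all marked protein-coding genes it was 59.3, 60.6 and 62.0. Above a percentile of 50 lay 57 of 73 marked core genes in WT (78.1%, beside 60.6% of marked protein-coding genes), 57 of 75 with 2HG (76.0% beside 62.3%) and 55 of 74 in CLPP-KO (74.3% beside 64.2%). Above 90 lay 9 core genes in WT (12.3%), close to the 12.7% of marked protein-coding genes, and 3 and 4 in the other lists (4.00% and 5.41%, beside 13.1% and 13.5%). The small subunit had medians of 72.8, 61.8 and 63.9, and the large subunit 68.4, 63.9 and 71.2.

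**Figure D3:**
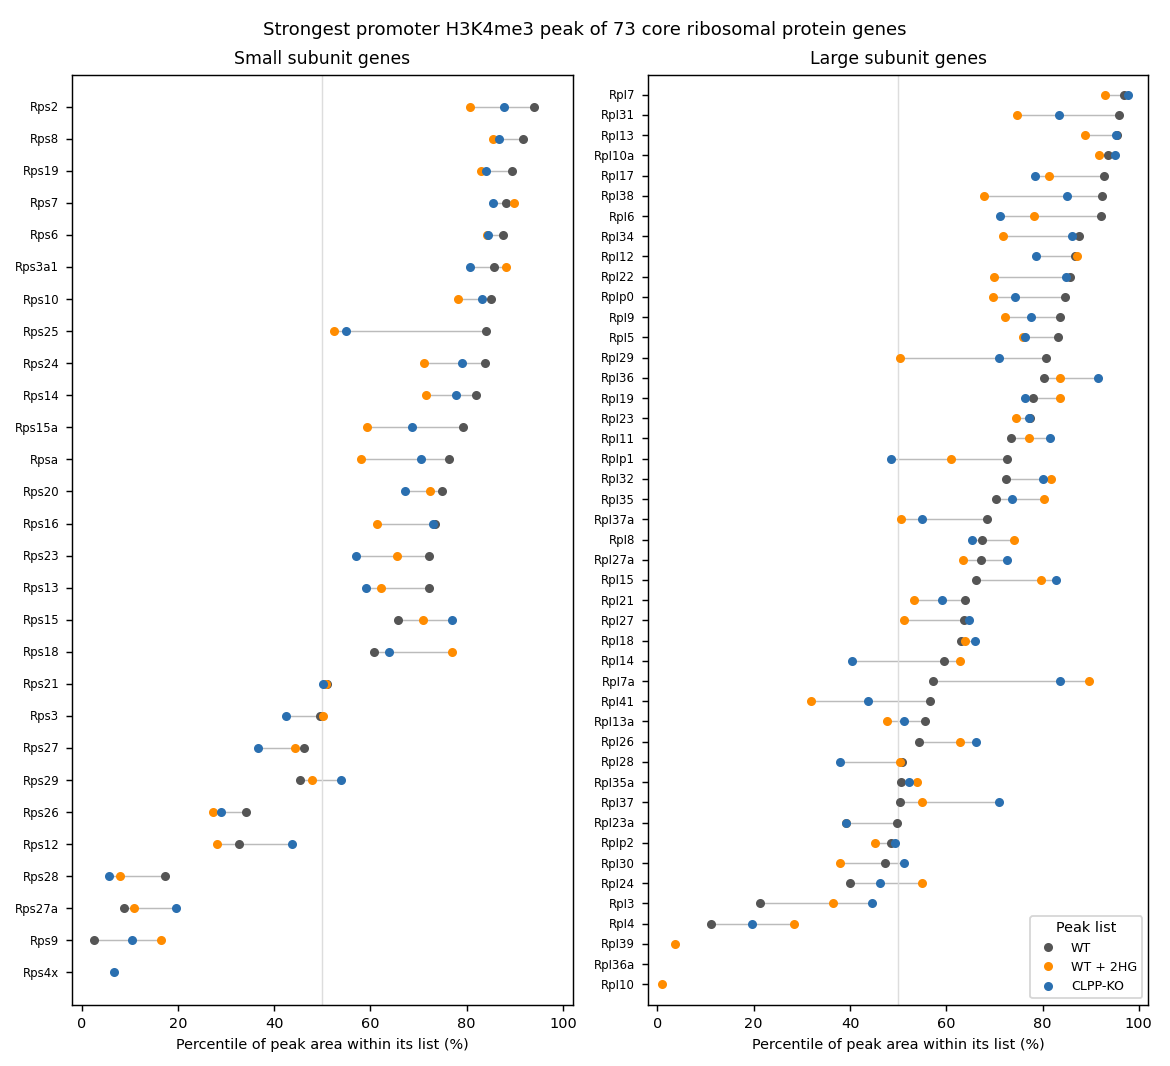
Percentile of the strongest promoter peak within its list (x axis, %) for 73 of the 77 core genes (y axis), in the small and the large subunit, ordered by the WT value, with 1 point per list and a grey line from the lowest to the highest value. Most points lie to the right of 50, and the genes of chromosome X hold only 3 points in all, below 7.

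At the top of the WT list, Rpl7 stood at 96.9 in WT, 93.0 with 2HG and 97.7 in CLPP-KO. The WT value is that of a peak lying wholly before the canonical start, from -1947 to -67 bp, on the side of Rdh10. Its summit lay at -1413 bp, and it was the only WT promoter peak of Rpl7. In both non-WT lists the strongest peak also lay wholly before the start. Rpl31, which lies near the exit of the peptide tunnel, stood at 95.8 in WT, 74.7 with 2HG and 83.5 in CLPP-KO. Rpl13 stood at 95.5, 88.8 and 95.3, and Rpl10a at 93.6, 91.8 and 95.1. Rps2, which lies near the mRNA entry channel, stood at 93.9, 80.8 and 87.8. Its strongest peak in each list also lay within 2000 bp of the starts of Ndufb10 and Rnf151. Among these 5 genes the value in WT + 2HG was the lowest of the 3 lists in every case.

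Near the bottom, Rps9 stood at 2.60 in WT, 16.4 with 2HG and 10.5 in CLPP-KO. Rps27a, which encodes a fusion of ubiquitin and a small subunit protein, stood at 8.76, 11.0 and 19.6. Rpl4 stood at 11.1, 28.4 and 19.7, but the first value is that of a peak inside the gene, and the other 2 are those of a peak lying wholly before the start, on the side of Zwilch, with summits at -603 and -644 bp. Rps28, next to Ndufa7, stood at 17.4, 7.92 and 5.79. For Rpl3 and Rpl41 the strongest peak lay at a neighbouring start, Syngr1 and Zc3h10. Within 1000 bp of their own canonical start, Rpl3 stood at 9.48, 9.33 and 10.4, and Rpl41, which encodes the shortest ribosomal protein, at 21.3, 11.4 and 20.0.

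The 6 core genes chosen for their known roles lay in the upper part of each list. Rps6, the target of S6 kinases, stood at 87.5 in WT, 84.3 with 2HG and 84.5 in CLPP-KO. Rps19, the gene most often mutated in Diamond-Blackfan anaemia, stood at 89.5, 83.0 and 84.1. Rpl5 and Rpl11, which with 5S rRNA bind Mdm2 when ribosome assembly is disturbed, stood at 83.1, 75.9 and 76.4 and at 73.5, 77.3 and 81.7, respectively. Rplp0, the base of the stalk that recruits elongation factors, stood at 84.8, 69.6 and 74.2, and Rpl22 at 85.6, 69.8 and 85.0. Of these 6 genes, Rpl11 alone had higher values in both non-WT lists than in WT.

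Peaks of core genes were of ordinary width. The median was 949 bp in WT, 1016 bp with 2HG and 972 bp in CLPP-KO, beside 901, 1002 and 990 bp over marked protein-coding genes. Peaks of 2000 bp or more were found at 1 core gene in WT (1.37%, beside 3.93% of marked protein-coding genes), 0 with 2HG (beside 6.03%) and 1 in CLPP-KO (1.35% beside 5.94%). The WT peak of that width was at Rpl12, 2123 bp, which shares its start region with Lrsam1, and the one in CLPP-KO at Rpl7a, 2035 bp. Among the next widest in WT were those of Rpl7 (1881 bp, wholly before its start), Rps2 (1762 bp) and Rps25 (1552 bp). These peaks also lay within 2000 bp of another coding start. Among the narrowest were those of Rpl4 (379 bp), Rps27a (514 bp), Rpl3 (524 bp, at the neighbouring start) and Rpl30 (563 bp).

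The peaks reached into the gene and little before it. In WT the summit lay downstream of the canonical start at 71 of 73 marked core genes (97.3%), in WT + 2HG at 71 of 75 (94.7%) and in CLPP-KO at 70 of 74 (94.6%). Over marked protein-coding genes it was 84.5%, 84.8% and 85.3%, and over those for mitochondrial ribosomal proteins 81.4%, 77.5% and 77.8%. The median summit of core genes lay 363, 313 and 294 bp inside the gene, beside 325, 290 and 293 bp over marked protein-coding genes. The WT peak covered the canonical start at 31 core genes (42.5%, beside 52.6%), the WT + 2HG peak at 46 (61.3% beside 68.2%) and the CLPP-KO peak at 42 (56.8% beside 67.3%). In all 54 core genes whose WT peak lay at no other protein-coding start, the summit was downstream in each list. Where the annotated start is that of a longer transcript, these distances grow with it.

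**Figure D4:**
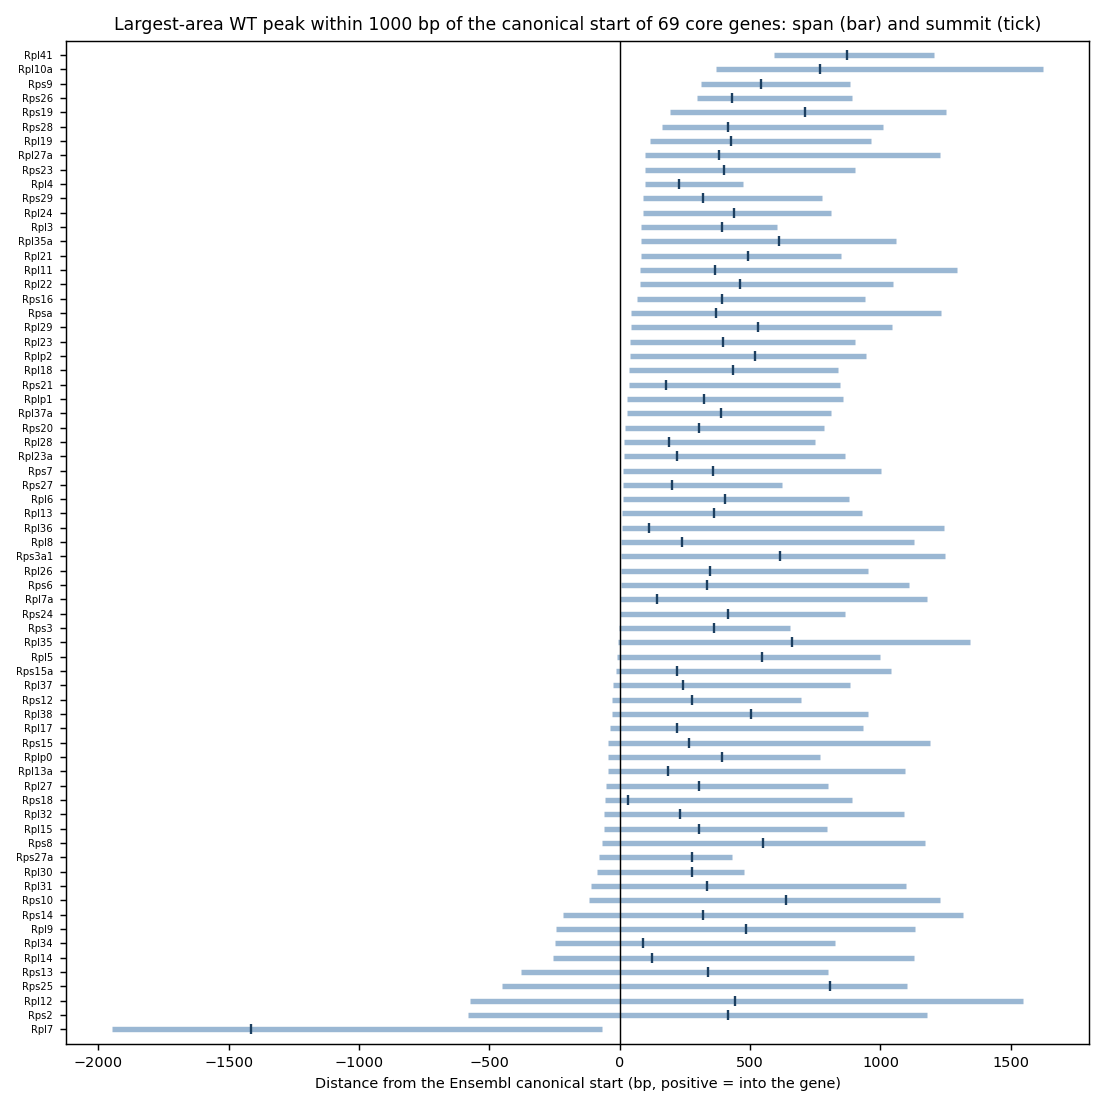
Span (bar) and summit (tick) of the largest-area WT peak within 1000 bp of the canonical start for 69 of the 73 core genes with one (y axis), as distance from that start in bp (x axis, positive into the gene). At 39 of these genes the whole peak begins after the start, and Rpl7, with its summit at -1413 bp, is the only one with a summit before it.

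Relative to WT, the core genes ranked lower by area in both non-WT lists, while the protein-coding genes as a whole ranked higher. For WT + 2HG minus WT, the 73 core genes marked in both lists had a median difference of -3.82 percentile points, with 45 lower and 28 higher. Over the 11057 protein-coding genes marked in both, the median was 3.69 and 35.6% were lower. For CLPP-KO minus WT by area, the core median was -3.00 points with 47 lower and 26 higher, beside 5.27 and 30.2% lower over 11084 protein-coding genes, but ranking by summit p-value turned it to 1.26, with 32 lower and 41 higher, beside 7.53. Lower in both non-WT lists were 38 of 73 core genes (52.1%), beside 21.6% of protein-coding genes marked in all 3 lists. Both differences use the same WT list, so they are not independent of each other.

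The non-WT lists are longer, which by itself can raise percentiles of peaks found in every list. Each list was then limited to its 12342 peaks of largest area. The median over protein-coding genes became -0.0446 with 2HG (50.2% lower) and -0.535 in CLPP-KO (52.7% lower). The core median became -8.78 (52 of 71 lower) and -8.97 (58 of 70 lower), respectively. No replicate spread exists for any of these differences.

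**Figure D5:**
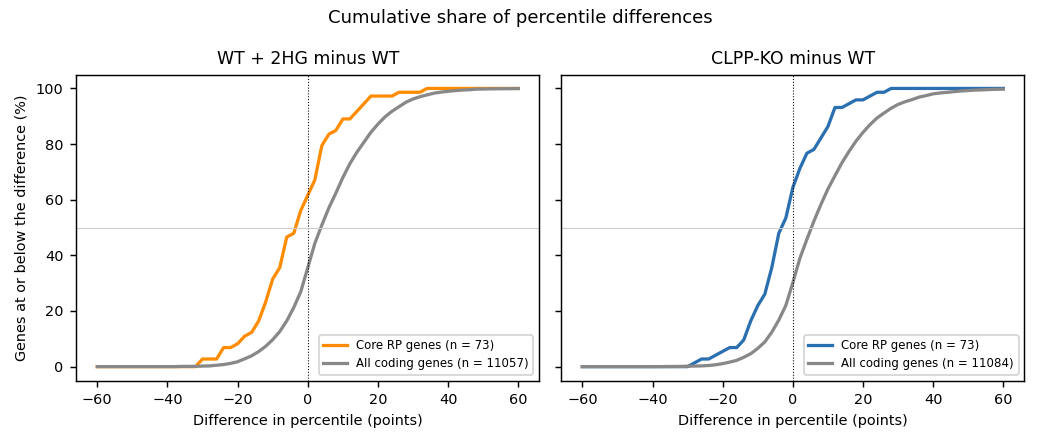
Cumulative share of genes (y axis, %) at or below a difference in percentile from WT (x axis, points), for core genes (coloured) and all coding genes marked in both lists (grey), with WT + 2HG on the left and CLPP-KO on the right. The core curves cross 0 at 61.6% and 64.4%, and the grey curves at 35.6% and 30.2%.

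The WT percentile is a term of each difference, so genes high in WT tend to be lower in another list and genes low in WT higher, and the values are given by WT range only beside those of protein-coding genes of that range. Of the 30 core genes above a WT percentile of 75, 24 were lower with 2HG (median -8.78) and 27 in CLPP-KO (median -5.01), beside 53.5% and 49.3% of protein-coding genes (medians -0.296 and 0.0848). Of the 6 core genes at or below 25, 5 were higher with 2HG and 4 in CLPP-KO (medians 8.03 and 8.21), beside 88.7% and 91.1% of protein-coding genes (medians 14.7 and 17.4). The small subunit had a median of -5.32 with 2HG (20 of 30 lower) and -5.01 in CLPP-KO (24 of 30 lower). The large subunit had -3.43 (25 of 43 lower) and -0.272 (23 of 43 lower). Over all protein-coding genes marked in both lists the median was 3.69 (35.6% lower) and 5.27 (30.2% lower). The difference between the subunits was not tested.

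The lowest differences named here include 1 small subunit gene and 6 of the large subunit. Rps25, known for its part in internal ribosome entry, stood at 84.0 in WT, 52.4 with 2HG and 54.9 in CLPP-KO. Its WT peak of 1552 bp also lay within 2000 bp of the start of Trappc4. Both non-WT lists had 2 separate peaks there, the stronger 558 and 666 bp wide. Rpl29 stood at 80.6, 50.4 and 71.0, and Rpl38, needed for translation of certain Hox mRNAs, at 92.3, 67.9 and 85.2. Rpl41 stood at 56.6, 31.9 and 43.8, which are values of the peak at Zc3h10. The peak near its own start, given above, differed less. In CLPP-KO the lowest also included Rplp1, a stalk protein, at 72.6 in WT and 48.6, Rpl6 at 92.1 and 71.2, and Rpl14 at 59.4 and 40.5. Rplp1 and Rpl6 were also lower in WT + 2HG, at 61.0 and 78.2, and Rpl14 was higher, at 62.8.

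In the other direction, Rpl7a stood at 57.2 in WT, 89.6 with 2HG and 83.6 in CLPP-KO. It starts next to Med22, and 2 WT peaks corresponded to 1 wider peak in each non-WT list, of 1866 and 2035 bp. Rpl15 stood at 66.1, 79.6 and 82.7, Rpl37 at 50.5, 55.0 and 70.9, and Rps18 at 60.8, 77.0 and 63.9. Rpl4 and Rpl3, at the low end of the WT list, were also among them, but for Rpl4 the difference sets the peak inside the gene in WT against the upstream one in the other lists, and for Rpl3 it belonged to the peak at Syngr1. Each of these named genes had a WT peak that also lay at another coding start. The 19 core genes whose WT peak lay within 2000 bp of another coding start had median differences of 0.846 and 1.57, and the 54 others -6.29 and -4.20.

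Small nucleolar RNAs, which guide the modification of ribosomal RNA, are carried in the introns of many ribosomal protein genes. Of the 30 core genes with such an RNA, 28, 30 and 28 were marked in the 3 lists, with median percentiles of 69.7, 61.2 and 70.7. Of the 47 without, 45, 45 and 46 were marked, with medians of 72.3, 67.9 and 67.4.

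Other genes of the pathway were compared by the same measures. Over all protein-coding genes, 51.3%, 56.4% and 58.2% were marked in WT, WT + 2HG and CLPP-KO, with median percentiles of 59.3, 60.6 and 62.0. The median difference of protein-coding genes from WT was 3.69 with 2HG (35.6% lower) and 5.27 in CLPP-KO (30.2% lower). Fau, which encodes a ribosomal protein fused to a ubiquitin-like protein and falls outside the symbol rule, was marked in all 3 lists. It stood at 78.0 in WT, 66.1 with 2HG and 67.2 in CLPP-KO, so it was lower in both non-WT lists. Of 27 further genes with TOP mRNAs, mainly translation factors, 27 were marked in WT and 26 in each non-WT list, with median percentiles of 77.7, 79.9 and 84.6. Their median difference from WT was -2.87 with 2HG (16 of 26 lower) and -0.348 in CLPP-KO (14 of 26 lower). Of 40 ribosome biogenesis genes, 34 were marked in WT and 36 in each non-WT list, with medians of 50.8, 50.4 and 54.1 and differences of 1.87 and 5.17. The 78 genes for mitochondrial ribosomal proteins, a separate set of proteins encoded in the nucleus, were marked at 70, 71 and 72, with medians of 47.8, 50.4 and 48.9, differences of 1.65 and 4.23, and widths of 719.5, 876 and 807 bp. In WT the share marked, the median percentile and the median width were all higher in the core cytosolic genes than in the mitochondrial set.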

How the data were processed

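H3K4me3 ChIP–seq was performed in 12 samples, with 3 inputs. Per the study's methods and the submitters' processing notes, the authors trimmed reads with fastp 0.23.4, mapped them to GRCm39 with BWA 0.7.17 and called peaks with Genrich 0.6.1, combining the p-values of 4 replicates per condition. The deposited lists hold a score limited to 1000, a signal, which is an area under the curve, and the −log10 p-value at the summit, and the authors did not scale them between lists. The q field is not filled. Stated settings were a q of 0.05 and an area of 20, whereas the smallest deposited area is 200.

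Starts came from GENCODE M39. A promoter peak overlapped 2000 bp either side of any transcript start, and the strongest was that of largest area. A peak said to lie at another coding start, or to be shared with it, came within 2000 bp of that start. Shares have 95% Wilson intervals. Overlaps were tested on simulated data and gave the same genes as bedtools 2.31.1. Coding sequences were aligned with Biopython 1.88. Sequences and motifs were read from GRCm39, because the promoter table at hand was of another build, and no protein sequence was used. Scripts ran in Python 3.11.15 with pandas 2.3.3, numpy 2.4.6, matplotlib 3.10.9 and scipy 1.17.1.

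The members, gene lists and comparisons were chosen with earlier results of these data known. Named genes were every non-core member, core genes without a peak in some list, core genes of chromosome X, the 5 highest and lowest in WT percentile, WT width and each difference, and Rps6, Rps19, Rpl5, Rpl11, Rplp0 and Rpl22. A few genes that this rule names are not reported here one by one or plotted by name, and remain in the counts and medians. Rpl15, Rpl22, Rpl35a and Rps2 were printed, and values of Rpl35rt, Mgat2 and other neighbours described, after their values were seen. Alternatives changed the window, start sites, overlap rule, thresholds, ranking, background and list sizes.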

Additional observations from a re-analysis of the deposited data

How the results depend on the processing

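No paired analysis was possible because each condition has a single list, called on its 4 replicates jointly, so replicates could neither be paired nor left out, and the lists do not give the number of reads behind them. The number of members with a promoter peak stayed within 71 to 80 for WT, 74 to 82 with 2HG and 74 to 80 for CLPP-KO under every alternative tried. Ranking by summit p-value moved the core median percentile to 75.0 for WT, 70.6 with 2HG and 80.3 for CLPP-KO, and ranking among promoter peaks of coding genes to 65.2, 53.3 and 59.6, where the median of coding genes is 50 by construction. The median core width became 1002, 1116 and 1037 bp as bases of the windows covered, 1023 bp with 2HG and 987.5 bp in CLPP-KO in equal-sized lists, and 965 bp in CLPP-KO within 1000 bp of the canonical start, a setting chosen after seeing the data.

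The core median difference of WT + 2HG from WT, -3.82 in the report, was -6.37 by summit p-value, -8.78 in equal-sized lists, -10.4 among genes marked in all 3 lists and -6.42 for peaks at no other coding start. That of CLPP-KO from WT, -3.00 in the report, was -8.97, -9.68 and -4.37 under the last 3 of these and -2.64 within 1000 bp of the canonical start. By summit p-value it turned to 1.26, and the cause was not tested.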
